A study of Homo sapiens with 17 samples.

Results

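The genes described here are 6 genes of ketone body metabolism, OXCT1, OXCT2, BDH1, BDH2, ACAT1 and HMGCLL1, of 23368 genes in a table of RNA-seq read counts. They were taken by name from that table, and the list was chosen by earlier results of these data. OXCT1 was chosen for its difference in input RNA between siTDP43 and WT cells, and HMGCLL1 for its difference between pull-down and input. No p is given for any OXCT1 or HMGCLL1 value, since each fit included libraries that chose these genes. The remaining 4 members share the pathway. The libraries came from HEK293T cells, a transformed human embryonic kidney line, either WT, with no control siRNA named, or siTDP43. In siTDP43 cells an siRNA against TDP-43, an RNA-binding protein encoded by TARDBP, was transfected. WT and siTDP43 are called genotypes below for short, though they differ by siRNA treatment. An effect of transfection cannot be told apart from one of lowered TDP-43. Poly(A) RNA was pulled down with an antibody against N4-acetylcytidine (ac4C), an acetylated form of cytidine (IP), or with a non-specific antibody (IgG), and part of the RNA was kept back (input). WT had 3 input, 3 IP and 2 IgG libraries and siTDP43 had 3 of each, 17 in all. The labels do not say that libraries of a group came from separate cultures, so p-values measure the spread between these libraries only, which may be technical.

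The WT input libraries held 27718784 to 36583436 counts, those of WT IP 19615316 to 21066215 and those of WT IgG 9022250 to 9466855. Totals were 24542434 to 31030950 for siTDP43 input, 8610070 to 15736165 for siTDP43 IP and 3013989 to 3436811 for siTDP43 IgG, so the siTDP43 IgG libraries were the shallowest and a low gene could be missed there first. Levels are given as CPM, counts scaled to the effective library size. They are relative to the other transcripts of a library and are not amounts of RNA pulled down. By the study's methods, RNA of the IP and IgG samples was too little to measure before amplification. TARDBP itself stood at 153 ± 3.87 CPM in WT input and 102 ± 3.67 in siTDP43 input (SD, n = 3 each), 67.2% of WT (adjusted p = 6.55e-13), so TARDBP mRNA was lowered and not lost. All 10 genes listed as typical of HEK293 cells were above 3 counts in both input groups, and their summed level was 1271 to 1303 CPM in WT input and 692 to 741 CPM in siTDP43 input. VIM, at a mean of 788 CPM in WT input and 262 in siTDP43 input, and KRT8, at 193 and 39.1, carried the lower sum, while NEFL stood at 65.2 and 186 and LIN28B at 30.3 and 58.9. Of 7 hepatocyte genes, 3 were above 3 counts in WT input and 2 in siTDP43 input, with sums of 1.85 to 2.96 and 2.21 to 2.27 CPM. The part of the lower HEK293 gene sum in the results below was not tested.

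Ketone bodies are small fuels made mainly in liver mitochondria from acetyl-CoA and burned in other tissues when glucose is scarce. In synthesis, ACAT1 joins acetyl-CoA units in an early step, and BDH1 reduces acetoacetate to 3-hydroxybutyrate in the last. In use, BDH1 turns 3-hydroxybutyrate back into acetoacetate, OXCT1 (also called SCOT) attaches CoA to it in the step that hepatocytes lack, and ACAT1 splits the product. OXCT2 is a testis form of OXCT1, BDH2 is a cytosolic dehydrogenase also known for making a siderophore, and HMGCLL1 is an HMG-CoA lyase outside the mitochondrion.

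OXCT1, the gene for the committed step of ketone body use, showed the widest difference of the members between genotypes. Its counts were 22, 11 and 28 in the WT input libraries and 3223, 2600 and 2958 in the siTDP43 input libraries. Every siTDP43 library lay far above every WT library. In CPM, WT input was 0.727, 0.280 and 0.798 and siTDP43 input was 101.64, 102.95 and 104.88, means of 0.602 ± 0.281 and 103 ± 1.63 (SD, n = 3 each). The fitted difference was 176-fold, 7.46 ± 0.12 on the log2 scale (SE), and it is given without a test because it chose the gene. The WT level rests on 11 to 28 counts a library, so the size of the fold is set mainly by the WT side.

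**Figure D1:**
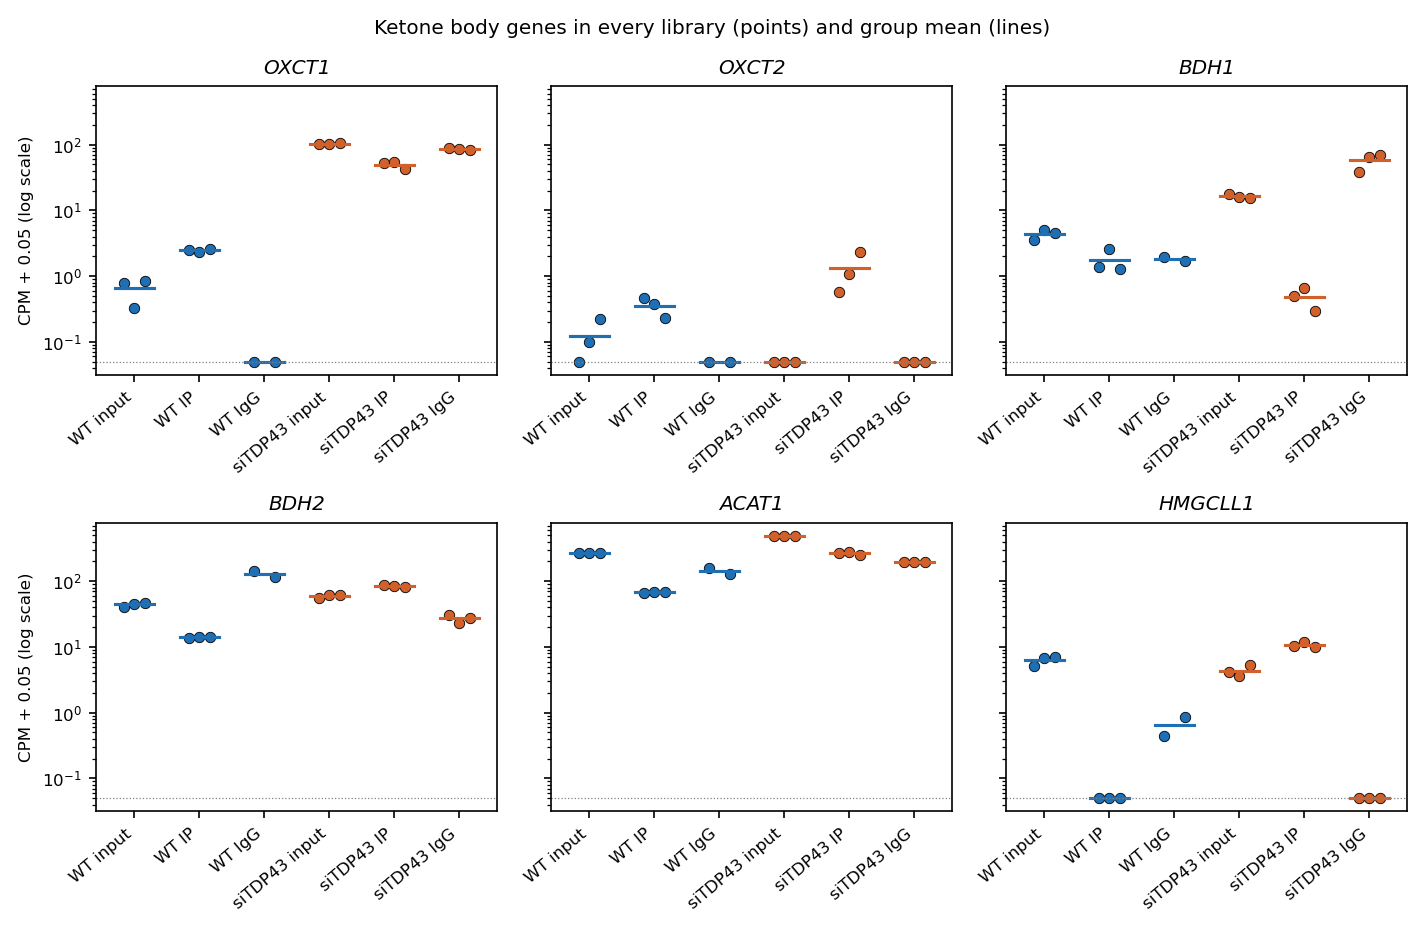
Level of each member in every library, as CPM + 0.05 on a log axis, by group along the x axis; points are libraries, horizontal lines are group means, and the dotted line marks 0 counts. OXCT1 lies between 0.280 and 0.798 CPM in WT input and between 101.64 and 104.88 CPM in siTDP43 input, and HMGCLL1 is at 0 counts in WT IP and in siTDP43 IgG.

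BDH1, ACAT1 and BDH2 were higher too, by much less, in a contrast where 38.6% of all tested genes were higher. BDH1, the mitochondrial 3-hydroxybutyrate dehydrogenase, had 106, 196 and 158 counts in WT input and 554, 409 and 439 in siTDP43 input. The groups did not overlap, and BDH1 rose 3.78-fold, from 4.33 ± 0.756 to 16.4 ± 0.971 CPM (log2 1.92 ± 0.13 SE, adjusted p = 2.32e-14). ACAT1, the mitochondrial acetoacetyl-CoA thiolase, had 8208, 10596 and 9503 counts in WT input and 15423, 12233 and 13901 in siTDP43 input. Scaled to library size, its libraries hardly varied within a genotype, at 271 ± 0.933 CPM in WT and 488 ± 4.44 CPM in siTDP43, and ACAT1 rose 1.81-fold (log2 0.86 ± 0.04 SE, adjusted p = 1.93e-19). BDH2, the cytosolic dehydrogenase, had 1228, 1792 and 1643 counts in WT input and 1776, 1549 and 1714 in siTDP43 input. BDH2 rose 1.34-fold, from 44.3 ± 3.29 to 59.4 ± 2.93 CPM (log2 0.42 ± 0.06 SE, adjusted p = 4.25e-07), again without overlap of the groups.

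HMGCLL1, the extramitochondrial HMG-CoA lyase, had a lower mean in siTDP43 input. Its counts were 151, 263 and 245 in WT input and 129, 90 and 146 in siTDP43 input, or 6.22 ± 1.07 and 4.27 ± 0.825 CPM. One siTDP43 library overlapped the WT range. The fitted log2 difference was -0.54 (SE 0.175). OXCT2, the testis form, had 0, 2 and 6 counts in WT input and 0 in each siTDP43 input library, too few to be tested there. With OXCT1 and HMGCLL1 included, 4 of the 5 tested members were past the threshold as higher in siTDP43 input and 1 as lower. Of all 14036 genes tested in this contrast, 79.2% passed, 38.6% higher and 40.6% lower, so that passing the test was common and says little about any single gene. As OXCT1 was chosen on this contrast and HMGCLL1 with its input libraries, nothing is read from the count.

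Divided by exon length, so that genes can be set beside each other, ACAT1 was the most abundant member in each of the 6 groups. In WT input ACAT1 stood at 126.79 CPM per kb, BDH2 at 15.2, HMGCLL1 at 2.43, BDH1 at 1.17, OXCT1 at 0.169 and OXCT2 at 0.0405, and only OXCT1 and OXCT2 overlapped in their libraries. In siTDP43 input the order was ACAT1 at 228.62 CPM per kb, OXCT1 at 29.0, BDH2 at 20.3, BDH1 at 4.45, HMGCLL1 at 1.67 and OXCT2 at 0, with no overlap between neighbours. Only ACAT1 exceeded OXCT1 in siTDP43 input, while BDH1, HMGCLL1 and BDH2 did so too in WT input.

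The other genes of ketone body metabolism were split. Of 19 on the list, 17 could be tested in input RNA, of which 8 were higher and 7 lower in siTDP43, with a median log2 difference of 0.28 against -0.05 over all genes. The cytosolic enzymes HMGCS1 and ACAT2, which feed sterol synthesis, rose by 2.24 (SE 0.0568, adjusted p = 2.86e-25) and 1.62 (SE 0.0447, adjusted p = 2.06e-24) on the log2 scale. HMGCS1 counts were 855, 998 and 1012 in WT input and 4228, 3143 and 3623 in siTDP43 input. AACS, which activates acetoacetate in the cytosol for lipid synthesis, gave -0.17 (SE 0.0862) and did not pass (adjusted p = 0.0689).

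Carriers of ketone bodies and lactate moved in both directions. SLC16A1, encoding the monocarboxylate carrier MCT1, rose by 0.83 (log2, SE 0.0378, adjusted p = 7.37e-19), from 7370, 9449 and 8721 counts to 13806, 10749 and 12347. SLC16A6, of the same carrier family, had 12, 16 and 20 counts in WT input and 66, 48 and 34 in siTDP43 input and rose by 1.91 (SE 0.387, adjusted p = 4.96e-05). SLC16A3, the lactate exporter MCT4, fell from 30, 22 and 24 counts to 10, 4 and 12 (log2 -1.27, SE 0.511, adjusted p = 0.0250). FGF21, a hormone linked to fasting and ketogenesis in liver, had 110, 126 and 117 counts in WT input and 0, 4 and 0 in siTDP43 input. The fitted log2 difference of FGF21 was -6.05 (SE 0.517), the lowest of the list. FGF21 passed the low-count filter only through WT input, so no p is given, and its size rests on 0 to 4 counts in siTDP43 input.

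Mitochondrial fatty acid oxidation, which supplies acetyl-CoA to ketone body synthesis, was divided as well. Of 18 tested genes, 10 were higher and 7 lower, with a median log2 difference of 0.26. DECR1, a reductase for unsaturated fatty acids, had 88, 100 and 108 counts in WT input and 1016, 808 and 914 in siTDP43 input and rose by 3.51 (log2, SE 0.11, adjusted p = 5.08e-23). CPT1A, which admits long-chain fatty acids to mitochondria, rose by 1.01 (SE 0.0979, adjusted p = 8.15e-11). ECI1, an enoyl-CoA isomerase, and ACADL, an acyl-CoA dehydrogenase, fell by 2.15 (SE 0.0776, adjusted p = 1.81e-21) and 2.05 (SE 0.301, adjusted p = 3.51e-07).

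In leucine breakdown, which yields HMG-CoA, 5 of 10 tested genes were higher and 1 was lower, with a median log2 difference of 0.30. IVD, the isovaleryl-CoA dehydrogenase, rose by 2.09 (SE 0.0543, adjusted p = 4.5e-25) and BCKDHB, a subunit of the branched-chain keto acid dehydrogenase, by 0.92 (SE 0.0707, adjusted p = 3.58e-13). AUH, the hydratase just before HMG-CoA, was the gene that fell, by 1.58 (SE 0.121, adjusted p = 3.2e-13). These lists were drawn up with earlier results of the data known, and the shares that passed stand beside 79.2% over all genes.

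**Figure D2:**
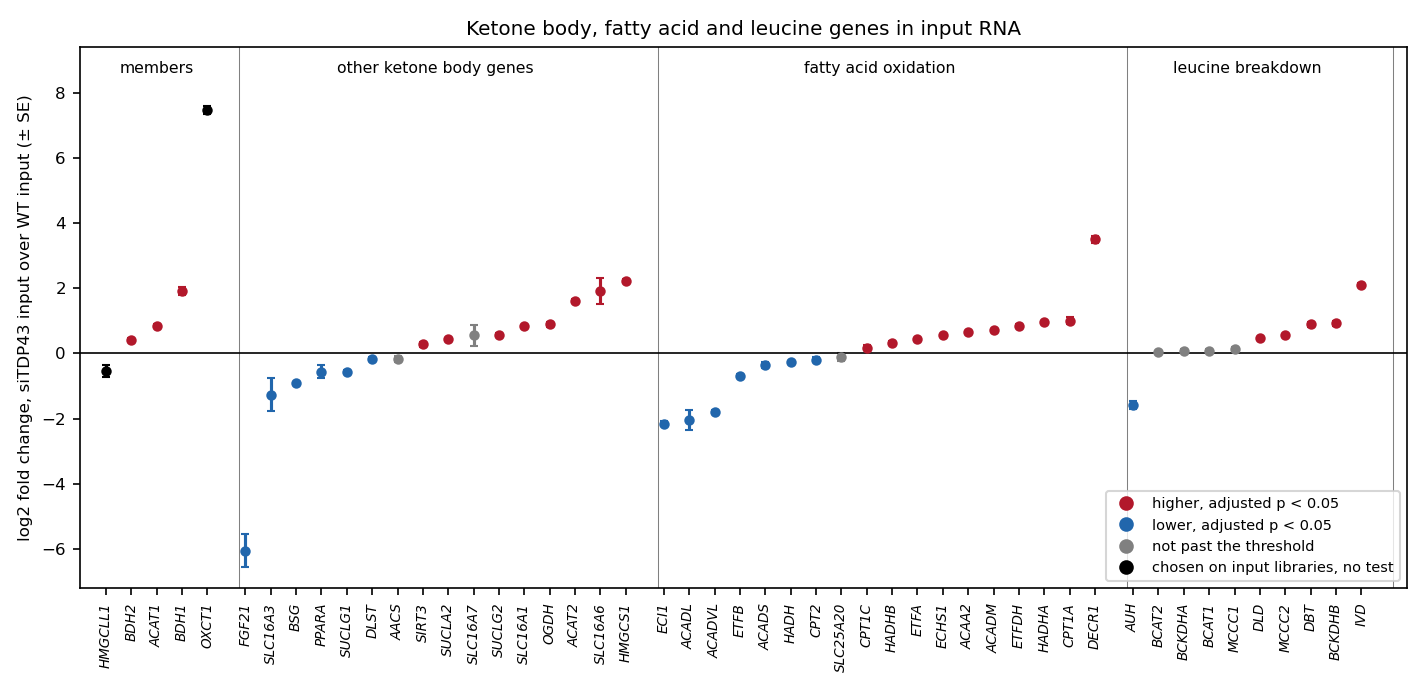
Log2 fold change of siTDP43 input over WT input with its SE for 5 members and the genes of 3 lists that were tested and are reported here, ordered within each list; red points were higher and blue points lower by the test, grey points did not pass, and OXCT1 and HMGCLL1 (black) carry no test. OXCT1 at 7.46 stands above every gene plotted, FGF21 at -6.05 below every other, and the remaining genes run from -2.15 (ECI1) to 3.51 (DECR1).

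The next question was which of these transcripts the ac4C antibody pulled down. A transcript was called ac4C(+) when IP exceeded both input and IgG more than 2-fold with an adjusted p under 0.05. In WT, 2302 of 14751 tested genes, 15.6%, were ac4C(+), and in siTDP43 1314 of 12746, 10.3%. OXCT1 met this rule in WT and HMGCLL1 in siTDP43, but the rule uses the input libraries that chose both genes and the IP libraries that chose HMGCLL1, so that neither is a test result here. The siTDP43 count became 2 members when siTDP43 IgG replicate 1, 2 or 3 was left out, which let OXCT2 through the low-count filter. Changes of IP over input or IgG between genotypes were taken from an interaction term over all 17 libraries. Because each genotype's IP was read against its own input and IgG, these comparisons share control libraries with each other.

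For OXCT1 the order of the fractions differed between genotypes. The WT IP libraries held 59, 56 and 58 counts, or 2.43 ± 0.143 CPM, above all WT input libraries, and both WT IgG libraries held 0. In WT, OXCT1 IP was 4.09-fold over input (log2 2.03 ± 0.42 SE, no test). It was at least 8.0-fold over IgG, taking 3 counts a library as the limit of detection (no test). The siTDP43 IP libraries held 699, 537 and 346 counts, 49.8 ± 5.94 CPM, and the IgG libraries 240, 210 and 230, 85.0 ± 3.14 CPM. In siTDP43 cells OXCT1 IP was thus lower than both, by 0.89 against input (SE 0.0956) and by 0.84 against IgG (SE 0.108) on the log2 scale. Neither was past 2-fold or is given a test. IgG over input was -0.05 ± 0.10 (log2, SE) there, and -0.60 when scaled by total counts. In WT, IgG was at least 1.97-fold below input. Between genotypes, IP over input differed by -3.09 (SE 0.267), which contains the input difference that chose the gene. IP over IgG changed by -3.79 or more in the same direction, a bound. No test is given for it, since the fit included the input libraries and WT IgG was at 0 counts.

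HMGCLL1 went from no recovered reads to enrichment. Its IP counts were 0, 0 and 0 in WT and 136, 118 and 80 in siTDP43, the latter 10.7 ± 1.11 CPM. IgG held 4 and 8 counts in WT, 0.388 and 0.823 CPM, and 0, 0 and 0 in siTDP43. In the siTDP43 IgG libraries 3 counts equal 1.07 to 1.21 CPM, above the WT level, so the genotypes cannot be ranked in IgG. In WT, IP was at least 49.0-fold below input, and in siTDP43 it was 2.78-fold above input (log2 1.47 ± 0.27 SE). The change between these values was at least 6.94 on the log2 scale. Against IgG, HMGCLL1 IP was at least 4.86-fold lower in WT and at least 9.0-fold higher in siTDP43, a change of at least 5.50. All of these rest on the IP counts that chose the gene and carry no test. The siTDP43 bound is limited by the low depth of its IgG libraries. IgG was below input in both genotypes, with a log2 value of -3.34 in WT (SE 0.434) and at least 3.23-fold in siTDP43.

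BDH1 had its lowest level of the 6 groups in siTDP43 IP, although its input level was higher in siTDP43 than in WT. Its IP counts were 32, 62 and 28 in WT and 6, 6 and 2 in siTDP43, or 1.70 ± 0.722 and 0.434 ± 0.180 CPM. Its IgG counts were 20 and 16 in WT and 106, 160 and 195 in siTDP43, or 1.79 ± 0.207 and 57.7 ± 16.4 CPM, so that the siTDP43 IgG libraries lay above the siTDP43 input libraries and the IP values rest on 2 to 6 counts. In WT, BDH1 IP was lower than input by 1.34 (log2, SE 0.279, adjusted p = 0.000116) and overlapped IgG (-0.09 ± 0.41 SE, adjusted p = 0.843), while IgG was lower than input (log2 -1.25 ± 0.37 SE, adjusted p = 0.00385). In siTDP43, IP was 32.6-fold below input (log2 -5.03 ± 0.33 SE, adjusted p = 4.69e-12) and 133.86-fold below IgG (log2 -7.06 ± 0.32 SE, adjusted p = 1.9e-13). IgG there exceeded input 4.11-fold (log2 2.04 ± 0.19 SE, adjusted p = 2e-09). Between genotypes the BDH1 enrichment over input changed by -3.84 (SE 0.488, adjusted p = 1.16e-08). Its IP over IgG changed by -6.92 (SE 0.543, adjusted p = 6.75e-14), which includes a change in the IgG libraries themselves.

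BDH2 took the opposite course. Its IP counts were 334, 340 and 315 in WT and 1194, 848 and 664 in siTDP43, which is 13.9 ± 0.0796 and 85.8 ± 3.0 CPM. Its IgG counts were 1476 and 1136 in WT and 82, 58 and 78 in siTDP43, which is 130 ± 18.6 and 27.1 ± 3.36 CPM. In WT, IgG was the highest of the 3 fractions and IP the lowest, while in siTDP43 the order was turned round. BDH2 IP in WT was below input by 1.67 (log2, SE 0.0895, adjusted p = 1.47e-14) and below IgG by 3.25 (SE 0.0974, adjusted p = 1.34e-18), with IgG 2.99-fold above input (adjusted p = 4.97e-14). In siTDP43, IP was above IgG 3.0-fold (log2 1.58 ± 0.13 SE, adjusted p = 5.62e-10) and above input 1.61-fold (log2 0.69 ± 0.10 SE, adjusted p = 1.64e-06), short of the 2-fold needed for ac4C(+). IgG there was below input by 0.90 (log2, SE 0.128, adjusted p = 1.3e-06), also under 2-fold. Between genotypes BDH2 gained 2.21 on the log2 scale against input (SE 0.136, adjusted p = 6.3e-17). Against IgG it gained 4.89 (SE 0.164, adjusted p = 4.87e-24).

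ACAT1, the most abundant member, was lower in IP than in input in both genotypes. Its IP counts were 1596, 1676 and 1559 in WT, 67.8 ± 1.65 CPM, and 3581, 2789 and 1995 in siTDP43, 266 ± 17 CPM. Its IgG counts were 1613 and 1268 in WT, 143 ± 18.3 CPM, and 541, 486 and 552 in siTDP43, 197 ± 1.21 CPM. ACAT1 IP in WT was 3.97-fold below input (log2 -1.99 ± 0.06 SE, adjusted p = 2.06e-19) and 2.15-fold below IgG (log2 -1.10 ± 0.07 SE, adjusted p = 7.19e-13), with IgG below input by 0.89 (adjusted p = 1.87e-11). The fold below IgG dropped under 2 without WT IgG replicate 1 (log2 -0.96). In siTDP43, IP was 1.65-fold below input (log2 -0.72 ± 0.06 SE, adjusted p = 6.72e-10) and 1.28-fold above IgG (log2 0.36 ± 0.07 SE, adjusted p = 8.89e-05), and IgG was below input by 1.08 (adjusted p = 1.97e-12). ACAT1 thus gained 1.12 against input (log2, SE 0.0911, adjusted p = 1.85e-13). The gain against IgG was 1.51 (SE 0.103, adjusted p = 1.49e-15).

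OXCT2 reads were found mainly in IP. Its IP counts were 10, 8 and 4 in WT and 7, 10 and 18 in siTDP43, 0.306 ± 0.119 and 1.26 ± 0.887 CPM, and all 5 IgG libraries held 0. OXCT2 did not pass the low-count filter within either genotype, so no test was made there. The siTDP43 IP was at least 13.3-fold above input and at least 1.07-fold above IgG, and the WT IP at least 1.01-fold above IgG. In the 17-library fit IP over input changed by at least 1.51 on the log2 scale. OXCT2 passed the filter of that fit only through the siTDP43 IP libraries with 10 and 18 counts, so no test is given. No fold is given for the change over IgG, where the controls of both genotypes were at 0. The GENCODE annotation also holds a near copy, the pseudogene OXCT2P1 on the same chromosome. By the study's methods only uniquely mapped reads were counted, so reads that fit both would be missing from the OXCT2 counts.

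**Figure D3:**
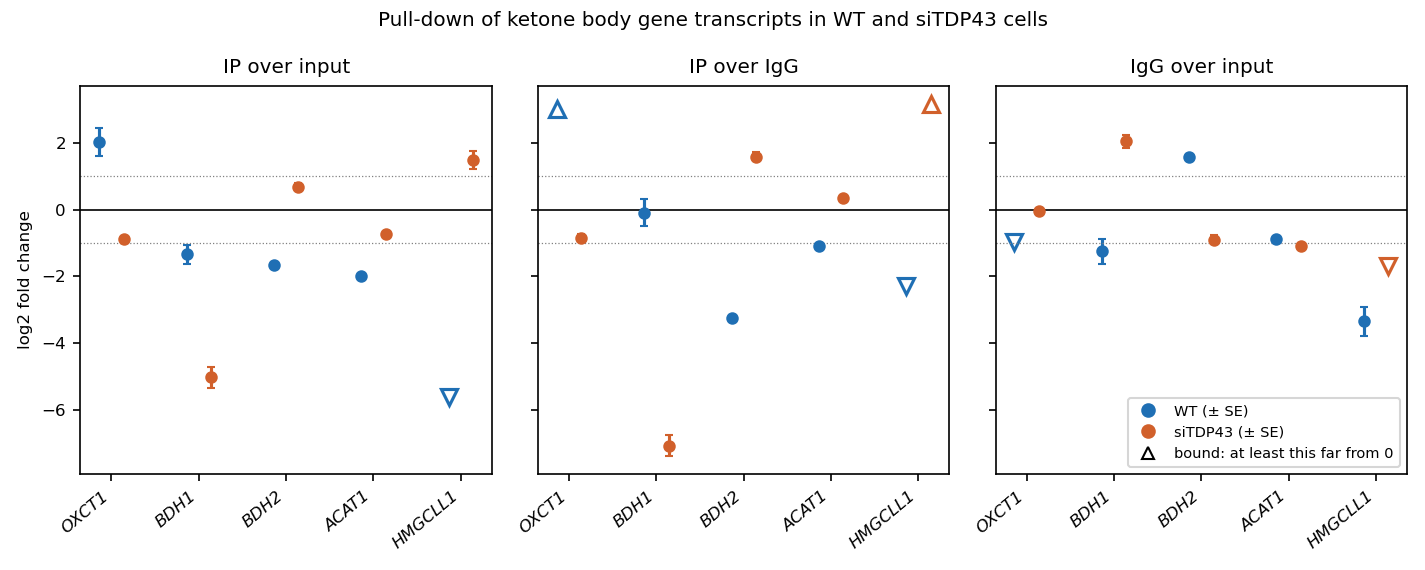
Log2 fold change of IP over input, IP over IgG and IgG over input for 5 members in WT (blue) and siTDP43 (orange), with SE; open triangles are bounds where 1 group was at or under 3 counts a library, and dotted lines mark 2-fold. OXCT1 and BDH1 have lower IP over IgG in siTDP43 than in WT, and BDH2, ACAT1 and HMGCLL1 higher.

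Across the members, the calls within each genotype stood beside the share of all genes as follows. In WT, IP over input was higher for 1 and lower for 4 of 5 tested members, where 57.5% of genes passed, 30.2% higher and 27.3% lower. WT IP exceeded IgG for 1 member and fell short of it for 3, where 53.0% passed, 35.2% higher and 17.8% lower. WT IgG exceeded input for 1 and fell short of it for 3, where 61.0% passed, 24.4% higher and 36.6% lower. In siTDP43, IP over input was higher for 1 and lower for 1 of 5, where 52.2% passed, 26.8% higher and 25.4% lower. Scaled by total counts, the members called there were 4 in place of 2, and the split of all genes went from 3414 higher and 3239 lower to 2771 and 4327. For siTDP43 IP over IgG the members were 2 higher and 1 lower, where 49.0% passed, 34.0% higher and 15.0% lower. For siTDP43 IgG over input they were 1 higher and 2 lower, where 65.7% passed, 24.7% higher and 41.0% lower, and total count scaling moved that split from 3145 higher and 5227 lower to 2365 and 6420. These counts include OXCT1 and HMGCLL1, whose input or IP libraries chose them, and nothing is read from them.

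Among the 4 members outside that choice, the change of IP over input between genotypes passed as higher for BDH2 and ACAT1 and lower for BDH1. Of all 15165 genes 67.8% passed, 31.5% higher and 36.3% lower. OXCT2 is not counted, as its siTDP43 IP counts took it past the low-count filter. The change of IP over IgG passed for BDH2, ACAT1 and BDH1 in the same directions, beside 60.8% of genes, 34.9% higher and 25.9% lower. Both comparisons use the same IP libraries.

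The same question was put to the other genes of the pathway. In WT, 2 of 17 other ketone body genes were higher in IP than in IgG and 6 were lower, with a median log2 difference of -0.71 against 0.29 over all genes. In siTDP43, 9 of 15 were higher and 6 did not pass, and the median was 1.37 with genes at the floor set to their bound and 1 gene without a bound left out, against 0.33 over all genes. Their IgG also differed: in siTDP43, 10 of 15 were lower in IgG than in input, with a median of -1.15 with genes at the floor at their bound, against -0.58 over all genes. IP over input, which does not use IgG, had 2 higher and 5 lower of 15 in siTDP43 (median -0.57 against -0.09), and 2 higher and 7 lower of 17 in WT (median -0.70 against 0.01). Between genotypes, 12 of 18 gained and 1 lost in IP over IgG, where 34.9% of all genes gained and 25.9% lost. In IP over input 7 gained and 4 lost, where 31.5% of all genes gained and 36.3% lost. For the comparisons within a genotype, the shares of all genes are those given above beside the members.

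ACAT2 IP was below input in both genotypes, by 4.73 on the log2 scale in WT (SE 0.156, adjusted p = 1e-18) and 1.96 in siTDP43 (SE 0.115, adjusted p = 7.2e-13), and its siTDP43 IgG was lower still, at -5.26 against input (SE 0.2, adjusted p = 2.16e-16). Between genotypes ACAT2 gained 2.62 in IP over input (SE 0.202, adjusted p = 4.61e-14) and 3.25 in IP over IgG (SE 0.474, adjusted p = 1.71e-07). AACS had IP over IgG at 1.98 in WT (SE 0.158, adjusted p = 5.98e-11) and -0.14 in siTDP43 (SE 0.231, adjusted p = 0.609). SLC16A1 IP over IgG was -1.57 in WT (SE 0.0639, adjusted p = 2.74e-16) and 0.11 in siTDP43 (SE 0.0803, adjusted p = 0.207). Among fatty acid oxidation genes, the change of IP over input was higher for 13 and lower for 1 of 18 (median 0.70 against -0.19), and over IgG higher for 10 and lower for 6. In leucine breakdown the change over input was higher for 4 and lower for 5 of 10 (median -0.38), and over IgG 4 and 4. Of all genes 31.5% were higher and 36.3% lower over input, and 34.9% and 25.9% over IgG.

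The members lie on 6 chromosomes of the human genome build hg19, so their differences were set beside those of their neighbours. OXCT1 is on the minus strand of chromosome 5 (chr5:41730167-41870791), with 3558 exon bases. Its nearest tested gene on the higher side, C5orf51, lies 33679 bases away and rose by 1.40 (log2, SE 0.0911, adjusted p = 6.16e-15), and on the lower side CARD6, 874711 bases away, gave 0.31 (SE 0.587, adjusted p = 0.631). Of 19 other tested genes within 2 Mb of OXCT1, 11 were higher and 7 lower in siTDP43 input, between -1.91 and 3.36. Over all tested genes 38.6% were higher and 40.6% lower in that contrast. HMGCS1, described above, is one of these, 1501.1 kb away between gene middles. An antisense transcript, OXCT1-AS1, overlaps an OXCT1 exon in the GENCODE annotation, and as the strand setting of the counting was not stated, its reads cannot be told apart from those of OXCT1.

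HMGCLL1 is on the minus strand of chromosome 6 (chr6:55299171-55444012), with 2561 exon bases. Of 12 other tested genes within 2 Mb, 3 were higher and 4 lower in siTDP43 input, between -4.71 and 3.48. The shares over all genes were 38.6% higher and 40.6% lower. The nearest were FAM83B, at 0.91 (SE 0.447, adjusted p = 0.0637), and BMP5, which encodes a bone morphogenetic protein, at -4.71 (SE 0.693). BMP5 stood at 1.35 CPM in WT input and 0.0528 CPM in siTDP43 input. It passed the low-count filter only through WT input, so no p is given for it.

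**Figure D4:**
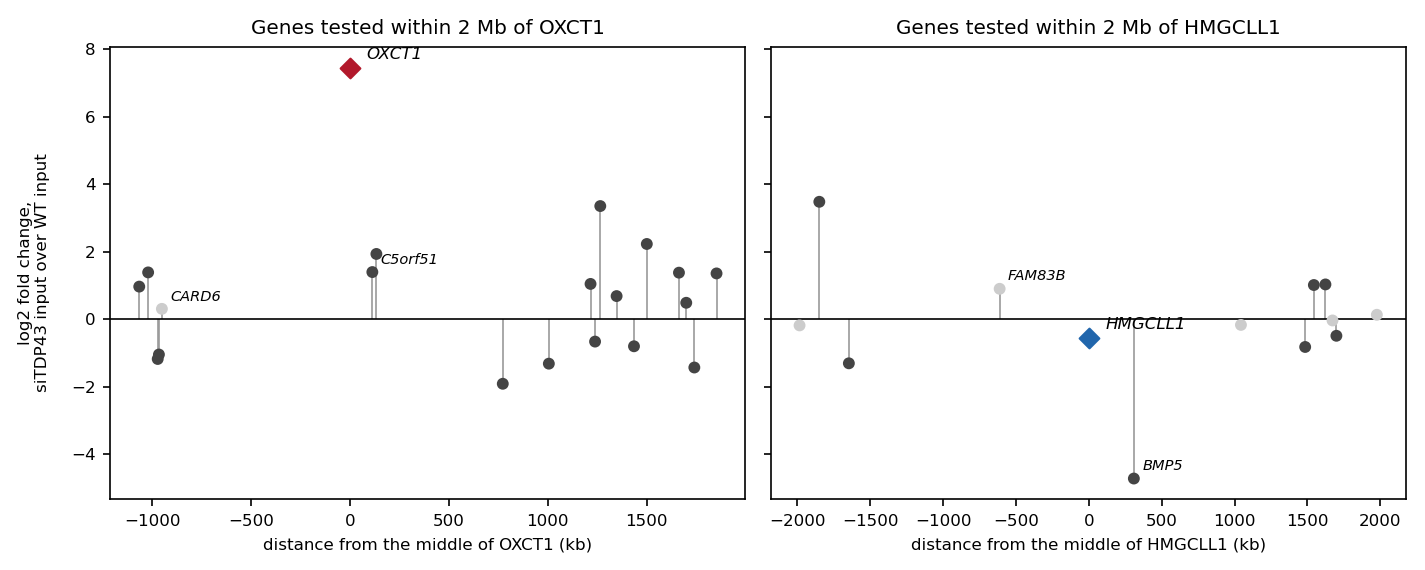
Log2 fold change of siTDP43 input over WT input for OXCT1 and HMGCLL1 (diamonds) and every tested gene within 2 Mb, against the distance between gene middles in kb; dark points passed an adjusted p of 0.05 and pale points did not. The 19 neighbours of OXCT1 lie between -1.91 and 3.36, below OXCT1 at 7.46.

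BDH1 is on the minus strand of chromosome 3 (chr3:197236654-197300194), and its neighbours were DLG1 at 0.88 (adjusted p = 4.04e-07) and LOC220729 at -0.0030 (adjusted p = 0.983). ACAT1, on the plus strand of chromosome 11 (chr11:107992258-108018891), lies between CUL5, which rose by 1.30 (adjusted p = 2.56e-16), and NPAT, at 0.07 (adjusted p = 0.551), and transcripts of the opposite strand overlap its exons. BDH2, on the minus strand of chromosome 4 (chr4:103998782-104021024), lies 612 bases from SLC9B2, which rose by 1.64 (adjusted p = 5.35e-15), and 5939 bases from CENPE, which fell by 0.85 (adjusted p = 2.83e-08). Exons of SLC9B2 overlap those of BDH2 on the same strand in the GENCODE annotation of this build, so part of the BDH2 counts may be shared. OXCT2, on the minus strand of chromosome 1 (chr1:40235197-40237020), sits inside the span of BMP8B, which fell by 0.90 (adjusted p = 0.0216), without exon overlap, between PPIE at -0.40 (adjusted p = 5.69e-10) and TRIT1 at 0.27 (adjusted p = 0.000681).

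The exons were searched on the transcribed strand for TCCCAGCT and TGTGCG, motifs of interest for ac4C and TDP-43 in this study, and for the TG repeat TGTGTG. The sites of TCCCAGCT and TGTGCG are shown because they are the places in the members' exons where those letters occur, with the motif in capitals and 10 bases on each side, read 5′ to 3′ from hg19. BDH1 held TCCCAGCT in its UTR (chr3:197236857-197236864), as did 21.5% of 4531 genes of 80 to 125% of its exon length. TGTGCG occurred in OXCT1 (chr5:41870746-41870751; 33.2% of genes of like length), in the coding sequence of OXCT2 (chr1:40236561-40236566; 22.1%) and in that of BDH2 (chr4:104012371-104012376; 30.0%). The OXCT1 site is exonic in the count table and not in the GENCODE annotation.
BDH1 UTR site: gggtcccctgTCCCAGCTgccccaggag
OXCT1 exon site: tagcggcaagTGTGCGccaacacagc
OXCT2 coding site: gagaacacccTGTGCGagagccagta
BDH2 coding site: tgaatctcaaTGTGCGcagcatgtac

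TGTGTG was found 3 times in BDH2, where 2 of the matches overlap each other, 2 times each in BDH1 and ACAT1 and 1 time in HMGCLL1. Of genes of like length to these members, 56.4% to 75.3% held it. OXCT1 and OXCT2 had no match, where 74.0% and 49.7% of genes of like length had one. The match is a description of letters and not of binding or acetylation. OXCT1 and HMGCLL1, the members that met the ac4C(+) rule, held no TCCCAGCT in these exons, and nothing about the antibody or the protein follows from its absence there.

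Each member was also set beside 10141 genes with a mean of at least 100 counts to find those with the most similar profile, as Pearson's r of log2 CPM over the 17 libraries, which share 6 groups and their depth. For OXCT1 these were HLA-DOA (r = 0.993) and SUMO3 (0.989), for BDH1 OPA1 (0.965) and ZNF202 (0.959), and for BDH2 LRIG3 (0.967) and NEK7 (0.963). For ACAT1 they were MRPL19 (0.998) and SRP9 (0.992), for HMGCLL1 MRPS6 (0.979) and CCNB2 (0.961), and for OXCT2 PLCL2 (0.898) and ZCCHC3 (0.895). No gene was named for more than 1 member.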

How the data were processed

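Per the labels and the study's methods, the authors trimmed reads with Trim Galore 0.6.7, aligned them with STAR 2.7.10a to hg19 and made the deposited raw counts per gene with featureCounts 2.0.2. Strand setting, annotation release and handling of read pairs were not given in the sources used here; 81.3% to 95.9% of low counts were even. From the counts, edgeR 4.0.16 (R 4.3.3) was run with TMM scaling, genes kept by filterByExpr (minimum count 10) and the quasi-likelihood test with Benjamini-Hochberg adjustment across all tested genes. Input groups, each genotype's libraries and all 17 libraries (interaction terms) were fitted separately. Calls needed an adjusted p under 0.05 and, for fractions within a genotype, over 2-fold. Groups at 3 counts or fewer a library gave bounds, and these cover counting error only. CPM levels used TMM over 17 libraries.

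Alternatives were DESeq2 1.42.0 (the study's tool), other scaling, no filter, a replicate block, 1 joint fit and leaving out each library. The test was checked on simulated data with 200 changed genes, all with a mean of at least 100 counts. At least 90% of 2-fold and 100% of 4-fold changes were recovered, and 1.5% to 7.3% of calls were false. Recovery at lower counts was not checked. Members and lists were chosen with earlier results of these data known. The text names the 6 members, TARDBP, the list genes with the 2 largest rises and falls in input, other enzymes and carriers, neighbours and like genes. Some list genes are not reported here by name. An acetylated spike-in was not used here.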

Additional observations from a re-analysis of the deposited data

Results flagged for a closer look

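These results are given because the pull-down differed between WT and siTDP43 cells by the interaction test. Against input, the change on the log2 scale (siTDP43 minus WT) was -3.84 for BDH1 (adjusted p = 1.16e-08), 2.21 for BDH2 (adjusted p = 6.3e-17) and 1.12 for ACAT1 (adjusted p = 1.85e-13). Against IgG, it was -6.92 for BDH1 (adjusted p = 6.75e-14), 4.89 for BDH2 (adjusted p = 4.87e-24) and 1.51 for ACAT1 (adjusted p = 1.49e-15). OXCT1 was flagged against IgG too, at a bound of -3.79 or beyond, and is given without a test for the reasons above. Both sets of changes use the same IP libraries. The depth of the siTDP43 IgG libraries and the level of each gene in IgG moved with these values, and their part in them was not tested.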

How the results depend on the processing

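Of 172 recomputed counts of called members, 164 stayed within 1.5 times the reported count, and of 755 recomputed member values 740 kept their direction and side of the threshold. The members called in siTDP43 IP over input were 4 in place of 2 under total count scaling and in 1 fit of all 17 libraries, where OXCT1 reached -1.23 and -1.05. The ac4C(+) members in siTDP43 were 2 in place of 1 without the low-count filter and in the 17-library fit, and those in WT were 2 in place of 1 in that fit. Leaving out 1 library gave 1 to 2 ac4C(+) members in siTDP43, with 2 when siTDP43 IgG replicate 1, 2 or 3 was left out. Directions turned only where a value was near 0 or at the floor. BDH1 WT IP over IgG became 0.034 under total count scaling and ran from -0.502 to 0.0754 when 1 library was left out, above 0 without WT IP replicate 1 or 3 or WT IgG replicate 1. The OXCT2 change over IgG was -0.10 by DESeq2. The cause was not tested. Total count scaling moved the median of all genes in siTDP43 IP over input from -0.09 to -0.43 and the split of the change over input from 4770 higher and 5511 lower to 3811 and 6593. The change over IgG was split into 4994 higher and 5432 lower by DESeq2, from 5293 and 3923. Deviations of same-numbered libraries from their group means correlated at -0.03 to 0.08. With so few libraries a group, this cannot show whether libraries of the same number came from the same RNA. With the replicate block, 5 members were again called in input and OXCT1 was 7.46, and no call on a member was changed by it.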
